A study of Homo sapiens with 282 samples.

Results

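Expression of the ribosome biogenesis genes and of genes for RNA polymerases I and III was followed in OCI-Ly3, an established human diffuse large B-cell lymphoma line, after exposure to 14 compounds. The module was a list of 43 gene symbols chosen by name. It covers subunits and initiation factors of RNA polymerases I and III, small nucleolar ribonucleoproteins, assembly factors of both ribosomal subunits and nucleolar regulators. 42 of the 43 were measured, among 18239 genes in all. DDX18 had no probe set that names it alone in the annotation used. Where a gene had several probe sets, it was represented by the probe set whose mean across the 282 arrays was highest, and no gene was left out for a low level.

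Ribosomes are built in the nucleolus, where RNA polymerase I transcribes the long ribosomal RNA precursor. RNA polymerase III makes 5S ribosomal RNA and the transfer RNAs. Guide ribonucleoproteins modify the precursor, and a large set of assembly factors folds, cuts and packs it into the small (40S) and large (60S) subunits. The process takes a large share of a growing cell's resources and is controlled by growth signals, among them the kinase mTOR and the transcription factor MYC.

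Cells in 96-well plates were harvested 6, 12 and 24 h after compound addition, and RNA levels were read on Affymetrix HT HG-U219 array plates, with 94 arrays at each time. The higher concentrations, each with 3 arrays per time unless stated, were aclacinomycin A 0.105 µM, blebbistatin 100 µM, camptothecin 0.31 µM, cycloheximide 5 µM, doxorubicin 0.101 µM, etoposide 0.812 µM, geldanamycin 0.032 µM, H-7 20.2 µM, methotrexate 100 µM (6 arrays), mitomycin C 2.56 µM, monastrol 100 µM, rapamycin 22 µM, trichostatin A 0.143 µM and vincristine 0.01 µM. All but methotrexate were also given at a lower concentration. Cells in medium alone (2 arrays per time) were a further group, and every group was compared with cells given the vehicle, 1% DMSO (8 arrays per time), at the same time. All compounds at one time therefore share their DMSO arrays. All arrays come from 1 cell line, and nothing states that replicate wells were separate cultures, so p-values measure the spread between wells. Values are log2 intensities relative to the other transcripts of an array. Less RNA per cell and fewer cells cannot be told apart in them.

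The 6 h arrays were even, with upper quartiles between 8.15 and 8.35 log2 units. At 12 h 31 arrays and at 24 h 17 arrays had low signal, meaning an upper quartile under 8 or an actin control whose 3′ probe set exceeded its 5′ probe set by over 2 log2 units. These included 4 of the 8 DMSO arrays at 12 h and DMSO replicate 7 at 24 h. Results of 12 h and 24 h are therefore given with and without them. The median standard error of a difference between 3 treated arrays and DMSO in the 6 h arrays was 0.0988. It came to 0.299 in the 12 h arrays (0.199 without those of low signal) and to 0.276 in the 24 h arrays (0.139 without them). Of 7 B-cell markers measured, PAX5 and IRF4 lay above the array median on all 94 arrays of 6 h, CD79B did so on 1 array, and MS4A1, CD79A, CD22 and POU2AF1 on 0. The T-cell marker CD2 was above it on 94 arrays and CD3D on 41, while CD3E, CD3G and CD8A were above it on 0. The myeloid marker CSF1R was above it on 3 arrays, and the other 3 myeloid and all 4 epithelial markers on 0.

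Many promoters of this gene class carry the E-box CACGTG, which MYC and its partner MAX bind, and the promoters of 33 of the 42 genes were found in RefSeq (GRCh38.p14, 250 bases before to 50 after the start site). The motif equals its own reverse complement, so both strands are covered by one search. It lay in 10 of 33 promoters (30.3%), against 2030 of 27305 promoters of all genes (7.43%). Among all promoters at or above the lower quartile of these genes' GC content the share was 10.1%. Shown 5′ to 3′ from 100 bases before to 50 after the start site are the 4 genes with the E-box that fell most under rapamycin at 6 h, to let the motif's place be compared. Capitals mark the E-box, which starts 28, 35 and 27 bases after the start site in BYSL, NOP2 and MYBBP1A and 10 bases before it in UTP20.
BYSL (40S precursor maturation), chr6:41921399-41921548, plus strand: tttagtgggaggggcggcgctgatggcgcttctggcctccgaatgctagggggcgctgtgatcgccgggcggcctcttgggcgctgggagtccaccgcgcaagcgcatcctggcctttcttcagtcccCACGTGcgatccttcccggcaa
NOP2 (methyltransferase of the large-subunit RNA), chr12:6568242-6568391, minus strand: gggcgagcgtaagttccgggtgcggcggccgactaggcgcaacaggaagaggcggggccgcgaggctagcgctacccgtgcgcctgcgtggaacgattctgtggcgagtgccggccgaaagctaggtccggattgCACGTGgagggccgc
MYBBP1A (nucleolar MYB-binding protein), chr17:4555335-4555484, minus strand: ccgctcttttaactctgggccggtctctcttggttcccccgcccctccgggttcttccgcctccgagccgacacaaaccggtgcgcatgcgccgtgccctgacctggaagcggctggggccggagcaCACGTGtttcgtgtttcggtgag
UTP20 (scaffold of the small-subunit processome), chr12:101280005-101280154, plus strand: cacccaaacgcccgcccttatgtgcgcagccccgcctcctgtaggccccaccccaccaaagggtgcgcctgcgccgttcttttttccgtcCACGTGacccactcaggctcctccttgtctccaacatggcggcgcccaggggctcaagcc
Under rapamycin at 6 h the median log2 fold change was -0.25 for the 10 genes with the motif, against -0.40 for the 23 without it. In medium it was 0.36 with the motif and 0.31 without.

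At 6 h the direction of the module separated the treatments. Members were mostly higher in medium than in DMSO, mostly lower under rapamycin, geldanamycin, monastrol and H-7, and split in both directions under trichostatin A, camptothecin and cycloheximide. A call is an adjusted p under 0.05 in limma, adjusted over all 18239 genes of a comparison. Since 41 of the 42 members lie above the median level of all genes, where calls are more frequent, the share called among the 9119 genes above that median is given as a second background for the higher concentrations and medium. The median change over all genes stayed between -0.03 and 0.06 in every higher-concentration comparison of 6 h.

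**Figure D1:**
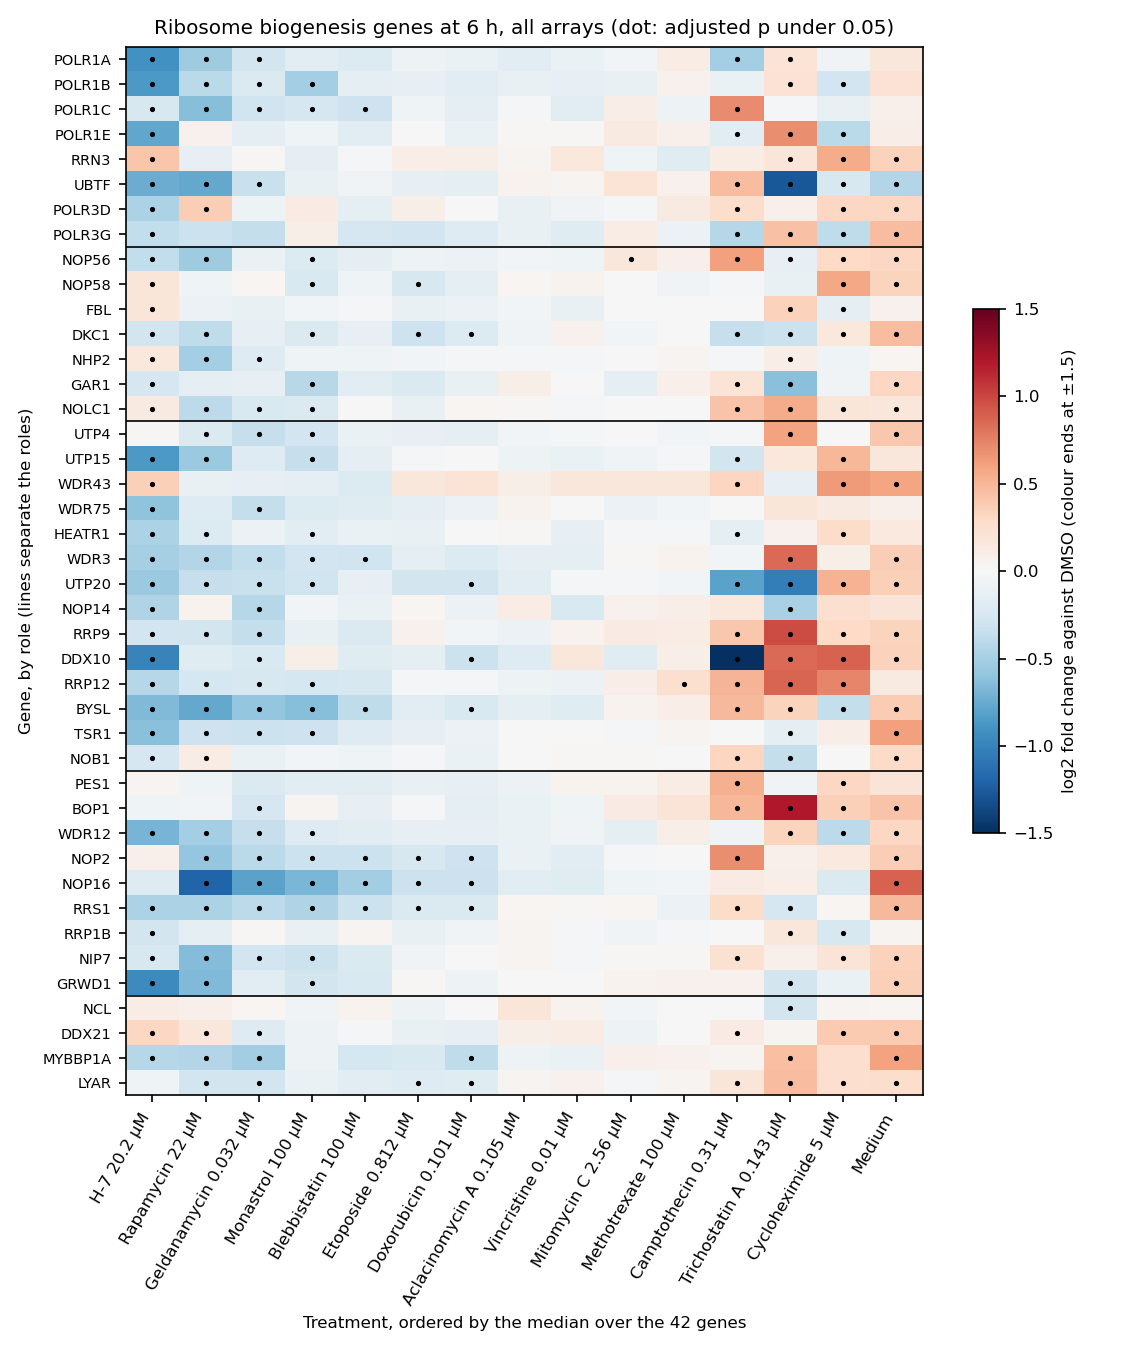
Log2 fold change against DMSO at 6 h of the 42 genes (rows, grouped by role) under each higher concentration and in medium (columns, ordered by the median over the genes); dots mark an adjusted p under 0.05. The rapamycin, H-7 and geldanamycin columns are mostly blue (lower than DMSO), the medium column is red for 41 of 42 genes, and the trichostatin A and camptothecin columns hold both colours.

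Cells in medium without vehicle had higher levels of most of the module. 27 of 42 members (64.3%) rose and 1 fell, against 11.7% of all genes that rose and 13.8% that fell (19.1% and 25.2% of the genes above the median level). The median over the members was 0.31, and 41 of the 42 estimates were above 0. The assembly factors of the 60S subunit rose in 7 of 9 cases and the ribonucleoprotein genes in 5 of 7. Of the 14 small-subunit genes 9 rose, as did 3 of the 4 other nucleolar genes. Of the 8 polymerase genes 3 rose and 1, UBTF, fell.

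NOP16, a 60S assembly factor, read 10.73 and 10.69 in medium, against a lowest of 9.69, a median of 9.785 and a highest of 10.06 on the DMSO arrays. Both medium arrays were above every DMSO array, a log2 fold change of 0.89 ± 0.10 (SE, n = 2 and 8, limma adjusted p = 1.44e-11). Of its other 2 probe sets, one of similar mean level (9.12) was higher in medium by 0.66 and one of low mean level (4.77) differed by -0.11. TSR1, which acts late in 40S maturation, read 10.49 and 10.63 in medium and 9.79 to 10.02 (median 9.965) in DMSO, a difference of 0.61 ± 0.07 with separated groups. The pseudouridine synthase DKC1 read 11.49 and 11.63 in medium and 11.06 to 11.17 (median 11.085) in DMSO, a difference of 0.47 ± 0.05 (limma adjusted p = 2.90e-11). Of the pathway's better known names, nucleolin (NCL, 12.28 and 12.35 in medium, 12.16 to 12.44 in DMSO) and the rRNA methyltransferase fibrillarin (FBL, 11.66 and 11.60 in medium, 11.53 to 11.65 in DMSO) overlapped DMSO and were not called.

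Among polymerase genes, RRN3, the factor that brings RNA polymerase I to its promoter, read 10.25 and 10.46 in medium against 9.89 to 10.18 (median 9.98) in DMSO, a difference of 0.35 ± 0.09 (limma adjusted p = 0.000965). The polymerase III subunit POLR3D read 9.47 and 9.32 against 8.89 to 9.20 in DMSO, also apart. POLR1A and POLR1B, the large catalytic subunits of polymerase I, differed by 0.17 ± 0.07 and 0.21 ± 0.08 and were not called. UBTF, which binds and opens the ribosomal RNA genes, read 9.92 and 9.80 in medium against 10.10 to 10.41 in DMSO, a fall of 0.43 ± 0.08 on the log2 scale. This rests on the probe set chosen. The other 3 UBTF probe sets were higher in medium by 0.55, 0.65 and 0.65, so no direction can be given for the gene. RRN3 has near-identical pseudogene copies, so its signal may be shared.

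Rapamycin, an inhibitor of mTOR complex 1, lowered most of the module. At 22 µM 25 of 42 members fell (59.5%) and 3 rose, against 13.6% of all genes that fell and 13% that rose (24.1% and 21.4% of the genes above the median level). The members' median was -0.30. Falls covered 9 of 14 small-subunit genes, 6 of 9 large-subunit genes, 4 of 7 ribonucleoprotein genes, 4 of 8 polymerase genes and 2 of the 4 others.

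NOP16 was lowest under rapamycin of all 6 h groups, with 8.58, 8.51 and 8.77, against 9.69 to 10.06 (median 9.785) in DMSO. That is a log2 fold change of -1.20 ± 0.09 (SE, n = 3 and 8, limma adjusted p = 9.72e-21), and no array of one group reached the other. The other 2 NOP16 probe sets were lower as well, by differences of -1.27 and -0.43. BYSL read 8.07, 7.88 and 8.23 under rapamycin and 8.65 to 8.99 (median 8.845) in DMSO, a change of -0.77 ± 0.07. NIP7, needed for 60S synthesis and rRNA cutting, read 9.73, 9.87 and 9.79 under rapamycin and 10.34 to 10.59 in DMSO (-0.65 ± 0.07). The histone-binding assembly factor GRWD1 changed by -0.66 ± 0.07. In all of them the groups were apart.

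The ribonucleoprotein proteins NOP56 (box C/D) and NHP2 (box H/ACA) also fell under rapamycin. NOP56 read 12.25, 12.24 and 12.00, against 12.64 to 12.76 in DMSO (-0.53 ± 0.05). NHP2 read 11.72, 11.63 and 11.74, against 12.17 to 12.24 in DMSO (-0.51 ± 0.04, limma adjusted p = 1.88e-20). DKC1 changed by -0.39 ± 0.05, while FBL, at 11.44, 11.45 and 11.52 against 11.53 to 11.65, was not called (limma adjusted p = 0.105). NCL, at 12.33, 12.32 and 12.42, lay inside the DMSO range.

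Of the polymerase genes, POLR1C, a subunit shared by polymerases I and III, read 8.58, 8.55 and 8.68 under rapamycin, against 9.16 to 9.36 in DMSO (-0.64 ± 0.06). POLR1A read 8.48, 8.39 and 8.48, against 8.78 to 9.09 in DMSO (-0.54 ± 0.06), and POLR1B changed by -0.40 ± 0.07. UBTF read 9.56, 9.53 and 9.48, against 10.10 to 10.41 in DMSO (-0.77 ± 0.07), here with all its probe sets on the same side. POLR3D went the other way, with 9.46, 9.50 and 9.39 under rapamycin against 8.89 to 9.20 in DMSO (0.37 ± 0.07). The RNA helicase DDX21 (0.17 ± 0.05) and NOB1, the nuclease that makes the 3′ end of 18S rRNA (0.11 ± 0.04), were the other 2 that rose. The DDX21 rise is that of its chosen probe set, and its probe sets differed in sign. RRN3 and POLR3G, an alternative polymerase III subunit, overlapped DMSO and were not called.

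The lower rapamycin concentration also lowered most members. At 13.8 µM 27 members fell and 2 rose, against 7.11% and 10.7% of all genes, with a median of -0.37. NOP16 read 8.65, 8.68 and 8.76 at 13.8 µM, below every DMSO array (-1.12 ± 0.09), and BYSL changed by -0.70 ± 0.07. Tested against each other, 22 and 13.8 µM differed in 4 members, 2 in each direction, against 6.16% of all genes, and the median difference was -0.01.

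**Figure D2:**
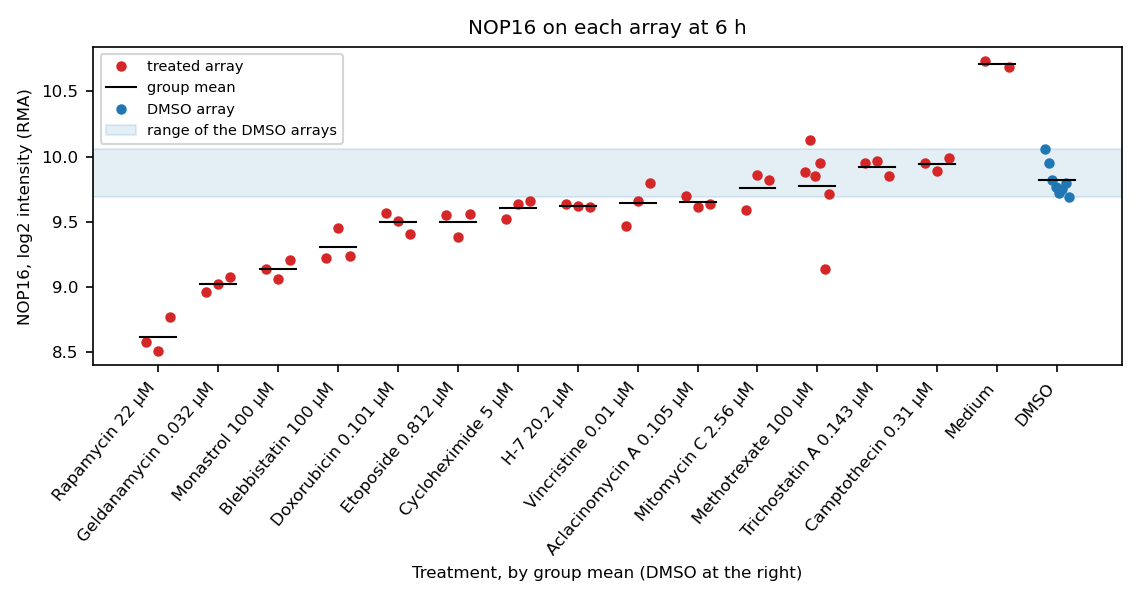
NOP16 log2 intensity on every 6 h array for the higher concentrations, medium and DMSO (right); red points are treated arrays, blue points DMSO arrays, black lines group means, and the band is the range of the 8 DMSO arrays. The 3 rapamycin arrays lie between 8.51 and 8.77 and the 2 medium arrays at 10.69 and 10.73, on opposite sides of the DMSO band of 9.69 to 10.06. The values are those of the probe set of highest mean, and in medium 1 of the other 2 differed in sign (-0.11).

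Geldanamycin, an HSP90 inhibitor, lowered as many members. 25 of 42 members (59.5%) fell and 0 rose, against 9.75% and 6.73% of all genes (17.9% and 10.8% above the median level), and the median was -0.23. Of the small-subunit genes 10 of 14 fell, and of the 60S genes 6 of 9. NOP16 read 8.96, 9.02 and 9.08 under geldanamycin, a change of -0.80 ± 0.09, and BYSL 8.24, 8.27 and 8.25 (-0.58 ± 0.07), both below all DMSO arrays given above. NOP2 read 8.30, 8.12 and 8.30, against 8.58 to 8.72 in DMSO (-0.41 ± 0.06, limma adjusted p = 2.45e-07). MYBBP1A read 7.08, 7.24 and 7.26, against 7.38 to 7.93 in DMSO (-0.53 ± 0.10). This is its chosen probe set, and its probe sets differed in sign under geldanamycin. NOP56, NOP58, FBL and DKC1 were among the 17 members not called. At 0.001 µM limma called 0 members (3 had an unadjusted p under 0.05), against 0.00548% of all genes down and 0.0768% up, and the test of 0.032 against 0.001 µM gave 26 members lower and 0 higher, against 9.90% of all genes called in either direction.

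Monastrol, which blocks the mitotic kinesin KIF11, and blebbistatin, a myosin II inhibitor, gave smaller falls. Under monastrol 21 of 42 members fell (50.0%) and 0 rose, against 2.99% and 4.61% of all genes (5.44% and 7.23% above the median level), with a median of -0.18. NOP16 read 9.14, 9.06 and 9.21 (-0.68 ± 0.09) and BYSL 8.22, 8.17 and 8.18 (-0.64 ± 0.07), all below the DMSO arrays. POLR1B read 8.87, 8.85 and 8.93, against 9.23 to 9.53 in DMSO (-0.51 ± 0.07, limma adjusted p = 2.42e-07), while UBTF, POLR1A and the 4 nucleolar regulators were not called. With replicate 2 of every compound and of medium left out together, the monastrol count was 12.

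Under blebbistatin 6 members fell and 0 rose, against 0.921% and 1.67% of all genes (1.59% and 1.86% above the median level). These were NOP16, BYSL, NOP2, RRS1, POLR1C and WDR3. NOP16 read 9.22, 9.45 and 9.24 (-0.52 ± 0.09). Of the 42 estimates 40 were below 0, with a median of -0.15. At 50 µM monastrol 3 members fell and 0 rose, against 0.510% and 0.959% of all genes, and at 10 µM blebbistatin 2 fell and 0 rose, against 0.806% and 1.83%. The differences between the concentrations passed the limma test for 0 members with either compound. For monastrol 9 members had an unadjusted p under 0.05 (0.0329% of all genes were called), and for blebbistatin 15 (0.186%).

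H-7, a protein kinase inhibitor, changed the largest share of the module at 6 h. 28 members fell (66.7%) and 7 rose, against 27.0% of all genes that fell and 23.0% that rose (44.9% and 27.0% above the median level). The median was -0.33. All 8 polymerase genes but RRN3 fell, as did 12 of the 14 small-subunit genes, whereas the ribonucleoprotein genes split with 4 up and 3 down. POLR1A read 7.98, 8.05 and 8.21 under H-7, against 8.78 to 9.09 in DMSO (-0.91 ± 0.06, limma adjusted p = 1.01e-22). POLR1B read 8.70, 8.36 and 8.51, against 9.23 to 9.53 (-0.87 ± 0.07). POLR1E, a polymerase I subunit that binds its initiation factor, read 8.62, 8.36 and 8.33, against 9.10 to 9.30 (-0.78 ± 0.06).

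The helicase DDX10 read 6.91, 6.99 and 6.87 under H-7, against 7.66 to 8.20 (median 7.915) in DMSO, a change of -1.01 ± 0.07. GRWD1 read 8.08, 8.35 and 8.36, against 8.94 to 9.42 (-0.96 ± 0.07). NOP16, lowest under rapamycin, was not called under H-7, nor were NOP2, BOP1 or PES1 of the 60S group. RRN3 rose, with 10.42, 10.48 and 10.37 against 9.89 to 10.18 in DMSO (0.42 ± 0.08). WDR43 of the small-subunit processome (0.35 ± 0.09), DDX21 (0.30 ± 0.05), FBL (0.18 ± 0.04) and NHP2 (0.15 ± 0.04) rose by less. At 12.4 µM 16 members fell and 6 rose, against 18.0% and 15.5% of all genes, and 20.2 µM was lower than 12.4 µM in 21 members and higher in 3, against 30.8% of all genes called.

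Cycloheximide, which blocks the elongating ribosome, raised 18 members (42.9%) and lowered 8, against 16.5% and 16.8% of all genes (27.5% and 29.1% above the median level). The median was 0.14. Small-subunit genes rose in 7 of 14 cases and fell in 1, while polymerase genes rose in 2 of 8 and fell in 4. DDX10 read 8.80, 8.81 and 8.82 under cycloheximide, above every DMSO array (0.88 ± 0.07, limma adjusted p = 4.62e-18). RRP12, a 40S export factor, read 9.66, 9.72 and 9.73, against 8.83 to 9.16 in DMSO (0.73 ± 0.08). RRN3 read 10.65, 10.48 and 10.56 (0.56 ± 0.08) and UTP20 7.74, 7.77 and 7.51, against 7.03 to 7.25 in DMSO (0.52 ± 0.09). POLR1E (-0.40 ± 0.06) and WDR12, a partner of PES1 and BOP1 (-0.40 ± 0.06), fell below the DMSO range. The WDR12 fall is that of its chosen probe set, and its probe sets differed in sign. At 0.264 µM 10 members rose and 2 fell, against 5.32% and 4.44% of all genes. Cycloheximide 5 µM and H-7 20.2 µM, which were given at different doses, differed in 31 members, with cycloheximide higher in 29 and lower in 2, against 25.1% and 22.9% of all genes. DDX10 differed by 1.89 (95% interval 1.71 to 2.06) and UTP15 by 1.36 (1.16 to 1.56).

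Trichostatin A, a histone deacetylase inhibitor, split the module. 19 members rose (45.2%) and 11 fell (26.2%), against 22.3% and 22.4% of all genes (33.4% and 38.8% above the median level). BOP1, the partner of PES1 in 60S assembly, read 10.75, 10.66 and 10.57 under trichostatin A, against 9.27 to 9.56 (median 9.465) in DMSO (1.20 ± 0.09, limma adjusted p = 5.81e-22). RRP9, the U3 ribonucleoprotein subunit, read 9.98, 9.86 and 9.98, against 8.72 to 9.13 (0.98 ± 0.08). WDR3 of the processome read 9.60, 9.62 and 9.72, against 8.55 to 8.88 (0.86 ± 0.08).

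UBTF showed the largest fall of a member under trichostatin A, with 9.04, 9.07 and 8.95 against 10.10 to 10.41 in DMSO (-1.27 ± 0.07), and all 4 probe sets had the same sign. UTP20 read 6.16, 6.05 and 6.14, against 7.03 to 7.25 (-1.03 ± 0.09). The box H/ACA protein GAR1 read 8.46, 8.36 and 8.26, against 8.87 to 9.11 (-0.62 ± 0.09), and NCL 12.05, 11.91 and 12.08, against 12.16 to 12.44 (-0.27 ± 0.06). FBL rose (11.99, 11.91 and 11.83, against 11.53 to 11.65). At 0.114 µM 18 members rose and 11 fell, against 22.4% and 21.9% of all genes. The test of 0.143 against 0.114 µM called 0 members in limma and 0 of all genes, with 1 member at an unadjusted p under 0.05.

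Camptothecin, a poison of topoisomerase I, raised 18 members (42.9%) and lowered 8 (19.0%), against 27.0% and 19.9% of all genes. Among the genes above the median level the shares were 37.0% and 35.1%, so the members' share of rises is near that background. POLR1C read 9.93, 9.96 and 9.97 under camptothecin, against 9.16 to 9.36 in DMSO (0.71 ± 0.06, limma adjusted p = 4.99e-20). NOP2 read 9.33, 9.39 and 9.32, against 8.58 to 8.72 (0.70 ± 0.06). NOP56 read 13.33, 13.28 and 13.31, against 12.64 to 12.76 (0.62 ± 0.05). For all 3 genes the arrays were clear of DMSO.

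DDX10 had the largest fall in the module at 6 h, with 6.15, 6.15 and 5.97 under camptothecin, against 7.66 to 8.20 in DMSO (-1.84 ± 0.07, limma adjusted p = 1.34e-38). UTP20 read 6.25, 6.49 and 6.30, against 7.03 to 7.25 (-0.80 ± 0.09), and POLR1A 8.58, 8.42 and 8.44, against 8.78 to 9.09 (-0.51 ± 0.06). These are the 3 longest genes of the module in RefSeq, with 275.9 kb for DDX10, 106.5 kb for UTP20 and 85.7 kb for POLR1A. The 5 members over 50 kb had a median change of -0.51 and the other 37 of 0.12. HEATR1 and WDR43, the others over 50 kb, changed by -0.14 ± 0.05 and 0.33, and HEATR1's probe sets differed in sign. Over all 42 members Spearman's rho between length and change was -0.38, and over 18189 genes it was -0.40, so the rank relation was alike. Of those 18189, the genes over 50 kb had a median change of -0.12 and the shorter ones of 0.12. The members over 50 kb thus had a lower median than long genes in general, and this difference was not tested. POLR3G and DKC1, 2 shorter genes, also fell (-0.43 ± 0.14 and -0.35 ± 0.05). UBTF rose by 0.47 ± 0.07 on its chosen probe set, while its other 3 probe sets changed by -0.31, -0.25 and -0.22, so again no direction can be given. For camptothecin at 0.01 µM limma called 0 members (6 had an unadjusted p under 0.05), against 1.56% of all genes down and 2.09% up, and the 2 concentrations differed in 24, of which 18 were higher at 0.31 µM, against 39.2% of all genes.

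**Figure D3:**
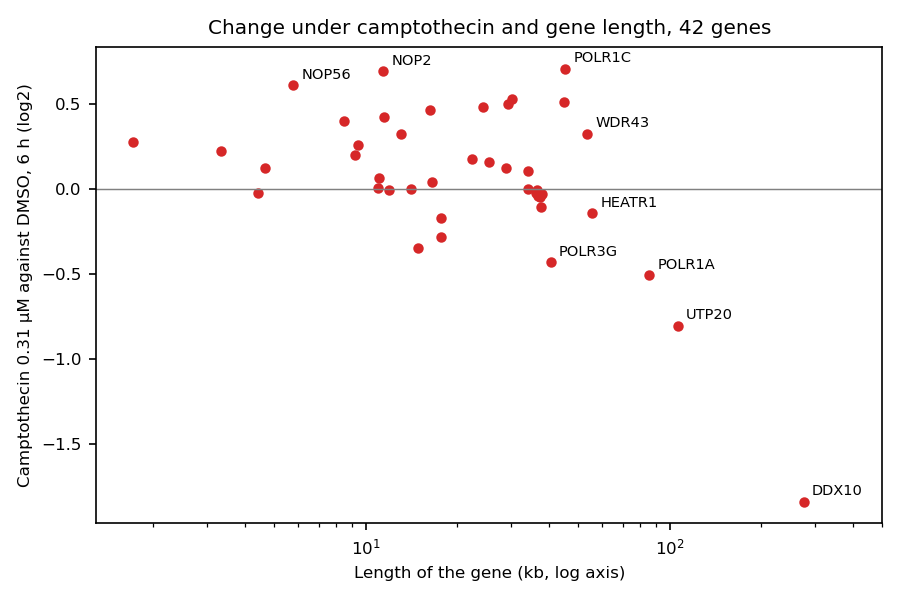
Log2 fold change under camptothecin 0.31 µM at 6 h against the RefSeq length of the gene (kb, log axis), with 1 point for each of the 42 genes. DDX10, UTP20 and POLR1A, the longest, lie at -1.84, -0.80 and -0.51, while shorter genes lie on both sides of 0.

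The remaining DNA-directed compounds did less at 6 h. Doxorubicin lowered 9 members and raised 0, against 3.74% and 3.40% of all genes (6.85% and 4.93% above the median level), and 39 of the 42 estimates were below 0. NOP2 read 8.41, 8.32 and 8.27 under doxorubicin, against 8.58 to 8.72 in DMSO (-0.32 ± 0.06, limma adjusted p = 0.000142), and RRS1 10.05, 10.09 and 10.12, against 10.22 to 10.40 (-0.22 ± 0.05). Etoposide, a topoisomerase II poison, lowered 6 and raised 0, against 2.09% and 2.48% (3.98% and 4.25% above the median level). DKC1 read 10.86, 10.78 and 10.71 under etoposide, against 11.06 to 11.17 in DMSO (-0.31 ± 0.05). With replicate 2 of every compound and of medium left out together, the counts were 4 for doxorubicin and 1 for etoposide. Camptothecin and doxorubicin, at 0.31 and 0.101 µM, differed in 24 members, with camptothecin higher in 19 and lower in 5, against 22.8% and 18.3% of all genes. NOP2 differed by 1.01 (95% interval 0.87 to 1.16) and DDX10 by -1.52 (-1.70 to -1.35).

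Aclacinomycin A, an anthracycline like doxorubicin but with a sugar chain of several units, called 0 members in limma, with 4 at an unadjusted p under 0.05, against 0.345% of all genes up and 0.428% down (0.121% and 0.647% above the median level). The 2 anthracyclines were given at close but unequal doses (0.101 and 0.105 µM), and doxorubicin was lower in 3 members and higher in 0, against 1.38% and 2.42% of all genes. The 3 were RRS1 (-0.25, 95% interval -0.37 to -0.13), LYAR (-0.23, -0.36 to -0.09) and DDX21 (-0.21, -0.32 to -0.09). For NOP2 the difference was -0.21 with an interval of -0.36 to -0.06 and an adjusted p of 0.116 in limma, and for NOP56 it was -0.05 (-0.16 to 0.06). With cycloheximide and H-7, 3 compound pairs were tested, each with p adjusted over all genes.

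Methotrexate, an antifolate, raised 1 member and lowered 0, against 1.17% and 0.587% of all genes (2.01% and 1.13% above the median level). That member was RRP12, at 8.99, 9.145 and 9.77 (lowest, median and highest of 6 methotrexate arrays), against 8.83 to 9.16 in DMSO, and the groups overlapped. The array at 9.77 stands apart from the other methotrexate arrays over all genes, with an SD of its deviations from the DMSO mean of 0.321 against 0.133 to 0.205 for the others. Mitomycin C, a DNA crosslinker, raised 1 (NOP56, 12.87, 12.87 and 12.85 against 12.64 to 12.76, 0.17 ± 0.05) and lowered 0, against 1.88% and 1.09% (3.34% and 1.88% above the median level). Vincristine, which blocks microtubule assembly, called 0 members in limma, with 9 at an unadjusted p under 0.05, against 0.532% up and 0.417% down (0.406% and 0.581% above the median level). The shares called under these 3 compounds are near the background.

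Over the 29 group means of 6 h (all concentrations, medium and DMSO) most members moved together. The correlation of a member with the mean of the others had a median of 0.66 and was over 0.5 for 26 of 42. These points share their time and the members share their arrays, so the values are descriptions. MYBBP1A (0.87), NIP7 (0.86), NOP16 (0.84) and BYSL (0.83) were highest. NCL was the one member below 0 (-0.27), and UBTF (0.04), NOB1 (0.10) and UTP20 (0.16) were lowest after it. The median range of group means was 1.07 log2 units, with 2.72 for DDX10 (lowest in camptothecin 0.31 µM, highest in cycloheximide 5 µM) and 2.09 for NOP16 (lowest in rapamycin 22 µM, highest in medium).

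Genes of the same pathway outside the module were counted at 6 h in 2 further lists. Of 97 other assembly genes, 26 were higher and 3 lower in medium (26.8% and 3.09%, against 11.7% and 13.8% of all genes). Under rapamycin 45 were lower and 6 higher (46.4% and 6.19%, against 13.6% and 13%). Under monastrol 37 were lower and 0 higher (38.1%, against 2.99%), and under geldanamycin 31 were lower and 3 higher (32.0% and 3.09%, against 9.75% and 6.73%). Under H-7 52 were lower and 19 higher (53.6% and 19.6%, against 27.0% and 23.0%). Of the genes above the median level, 19.1% were higher and 25.2% lower in medium. The shares of those genes that were lower were 24.1% under rapamycin, 5.44% under monastrol, 17.9% under geldanamycin and 44.9% under H-7. PPAN, a 60S factor, changed by -1.65 under H-7 and -0.64 under rapamycin. Of 27 other polymerase I and III genes, 3 were higher and 6 lower in medium (11.1% and 22.2%), with the share of rises near that of all genes. Under rapamycin 10 were lower and 6 higher (37.0% and 22.2%), and under H-7 16 were lower and 5 higher (59.3% and 18.5%). Under monastrol 2 were lower and 1 higher (7.41% and 3.70%), and under geldanamycin 6 were lower and 2 higher (22.2% and 7.41%). For monastrol and geldanamycin the share of falls in this list is near that of the genes above the median level. POLR3B, the second largest polymerase III subunit, changed by -2.34 under H-7 and -1.44 under camptothecin. POLR1G, a polymerase I subunit, changed by -0.79 under rapamycin and 1.10 under trichostatin A. MAF1, the repressor of polymerase III, changed by -0.24 under rapamycin and -0.67 under cycloheximide.

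Probe sets of a gene mostly agreed in sign at 6 h. Of the called members with several probe sets, all had one sign for 22 of 23 under rapamycin, 18 of 18 under monastrol, 17 of 19 under geldanamycin, 21 of 22 under trichostatin A, 23 of 29 under H-7, 16 of 20 under cycloheximide, 15 of 19 under camptothecin and 15 of 21 in medium. In medium the 6 exceptions were UBTF, POLR3G, WDR3, BYSL, NOP16 and MYBBP1A. Under rapamycin the exception was DDX21, under trichostatin A BYSL, and under geldanamycin WDR12 and MYBBP1A. Under cycloheximide they were POLR3G, HEATR1, WDR12 and RRP1B, and under camptothecin UBTF, UTP15, HEATR1 and BYSL. Under H-7 they were GAR1, UTP15, HEATR1, BYSL, TSR1 and RRP1B. POLR3G's second probe set has a mean level of 3.61 and differed by -0.03 in medium.

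At 12 h few members were called with all arrays. Rapamycin called 14, against 4.96% of all genes (7.12% above the median level), geldanamycin 1, against 0.455% (0.735%), and medium 0, against 0.417% (0.625%; limma, 9 at an unadjusted p under 0.05, median over members 0.52). Replicate numbers were also left out from all compounds and medium together. The rapamycin count was then 22 without replicate 2 and 5 without replicate 3. The geldanamycin count was 9 without replicate 2 and 0 without replicate 1 or 3. The medium count was 1 without replicate 2. NOP16 read 7.05, 6.13 and 6.80 under rapamycin, against 8.95 to 9.70 (median 9.31) in DMSO (-2.66 ± 0.45, limma adjusted p = 4.21e-05). Without the low-signal arrays rapamycin kept 1 array, assumed to vary like the other groups, and 26 members fell and 1 rose, against 7.79% and 5.41% of all genes (14.9% and 6.09% above the median level), with NOP16 lower by a log2 fold change of -2.47 ± 0.19. In medium 24 then rose and 0 fell, against 6.67% and 7.76% (11.5% of the genes above the median level rose), and NOP16 read 10.65 and 10.37, against 9.29 to 9.70 in DMSO (0.99 ± 0.15). Under geldanamycin 17 fell and 0 rose, against 5.09% and 4.52% (9.80% and 7.84%), with NOP16 at 8.05 and 8.56 (-1.22 ± 0.15). With all arrays the NOP16 differences were -1.03 ± 0.45 under geldanamycin and 1.19 ± 0.52 in medium, neither called. All 12 h arrays of blebbistatin 100 µM, doxorubicin 0.101 µM and aclacinomycin A 0.105 µM had low signal, so nothing is left of these groups without them.

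At 24 h, without the low-signal arrays, most members fell under doxorubicin, etoposide, rapamycin, blebbistatin, trichostatin A, mitomycin C and methotrexate. Camptothecin and monastrol each lowered 21 of 42. With all arrays the calls in either direction were 8 of 42 for doxorubicin (against 6.07% of all genes and 9.19% of those above the median level), 10 for rapamycin (2.49% and 3.78%), 16 for H-7 (20.7% and 26.6%) and 25 for mitomycin C (25.8% and 37.1%). There were 4 for cycloheximide (13.5% and 16.0%), 3 for methotrexate (4.74% and 7.18%), 2 for camptothecin (8.21% and 13%), 2 for trichostatin A (5.00% and 6.16%), 2 for monastrol (1.21% and 1.12%) and 1 for etoposide (1.45% and 2.15%). Apart from monastrol, these shares are near or below the background of calls in either direction. All these member calls were falls. Counting falls alone, methotrexate had 7.14% of members against 2.03% of the genes above the median level. For etoposide the shares were 2.38% and 0.855%, and for monastrol 4.76% and 0.976%. For the other 3 compounds the share of falls was near or below that of those genes. Blebbistatin (0.0493% and 0.0658%), geldanamycin (0.0219% on both), vincristine (0.0439% on both), aclacinomycin A (0%) and medium (0.713% and 0.801%) had 0 in limma. At an unadjusted p under 0.05 there were 2 for blebbistatin, 3 for medium and 0 for the other 3. The median over the members in medium was 0.29. Replicate 3 of H-7 and replicate 2 of mitomycin C had low signal. Leaving out replicate 3 of every compound gave 0 for H-7. Leaving out replicate 2 of every compound and of medium gave 1 for mitomycin C. Without the low-signal arrays alone the counts were 5 for H-7 and 31 for mitomycin C. The part of a single array in these counts was not tested.

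Without the low-signal arrays doxorubicin lowered 36 of 42 members (85.7%) and raised 1, against 19.9% and 15.9% of all genes (35.3% and 25.3% above the median level), with a median of -0.54. Etoposide lowered 35 and raised 2, against 13.6% and 11.4% (23.4% and 19.7%). Methotrexate lowered 26 and raised 5, against 20.6% and 15.0% (35.3% and 25.4%). Each methotrexate replicate number labels a pair of arrays, and averaging the arrays of one number was run only with all arrays. Mitomycin C, with 2 arrays left, lowered 28 and raised 3, against 15.6% and 14.2% (26.7% and 23.7%), and camptothecin, also with 2, lowered 21 and raised 3, against 15.4% and 18.6% (27.1% and 31.1%). DKC1 read 10.11, 10.18 and 10.16 under doxorubicin, against 11.32 to 11.53 (median 11.49) in DMSO (-1.30 ± 0.06, limma adjusted p = 7.51e-30). NOP16 read 8.75, 8.76 and 8.77, against 9.92 to 10.32 (-1.34 ± 0.09), and MYBBP1A 7.09, 6.83 and 6.66, against 7.87 to 8.58 (-1.39 ± 0.13). All 7 ribonucleoprotein genes, all 9 of the 60S group and the 4 nucleolar regulators fell under doxorubicin, NCL by 0.44 ± 0.06 on the log2 scale. With all arrays DKC1 (-1.27 ± 0.28, limma adjusted p = 0.000919) and MYBBP1A (-1.35 ± 0.35) were still called under doxorubicin, while NOP16 (-1.32 ± 0.53, adjusted p = 0.164) and NCL (adjusted p = 0.115) were not.

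Rapamycin, with 2 arrays left, lowered 36 and raised 2, against 13.2% and 14.5% of all genes (23.7% and 22.6% above the median level), with the lowest median of all groups (-0.63). NOP16 read 8.44 and 8.50 under rapamycin (-1.63 ± 0.11) and WDR12 8.35 and 8.26, against 9.14 to 9.52 in DMSO (-1.06 ± 0.08). The 2 that rose, POLR3D (9.41 and 9.52, against 8.83 to 9.37) and NOB1 (10.58 and 10.49, against 10.03 to 10.24), had also risen at 6 h. With all arrays WDR12 was called under rapamycin (-1.22 ± 0.23), and NOP16 (-1.76 ± 0.53, limma adjusted p = 0.0527), POLR3D (0.36) and NOB1 (0.36) were not. Blebbistatin, with all 3 of its arrays kept, lowered 32 and raised 0, against 8.48% and 5.68% (16.0% and 10.2%), with a median of -0.31. Monastrol (2 arrays) lowered 21 and raised 0, against 17.9% and 14.9% (30.4% and 8.75%). In medium 23 rose and 0 fell, against 9.12% and 11.1% (15.1% and 20.7%), and LYAR, a nucleolar zinc-finger protein, read 11.31 and 11.37, against 10.59 to 10.88 (0.62 ± 0.06). With all arrays LYAR differed by 0.64 ± 0.22 in medium and was not called (limma adjusted p = 0.324).

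Trichostatin A (2 arrays) lowered 30 and raised 1, against 15.5% and 15.7% of all genes (27.3% and 16.6% above the median level). BOP1, above DMSO at 6 h, read 9.71 and 9.73 at 24 h, against 9.74 to 10.21 in DMSO (-0.28 ± 0.09), and with all arrays the change of -0.37 ± 0.30 was not called. Cycloheximide had 1 array left, with 13 falls and 5 rises (31.0% and 11.9%), against 15.5% and 19.3% (26.6% and 22.1% above the median level). H-7 (2 arrays) lowered 4 and raised 1, against 11.1% and 9.73% (17.9% and 12.6%). Vincristine lowered 5 and raised 2 (11.9% and 4.76%), against 5.59% and 3.64% (9.88% and 6.28%). For cycloheximide and vincristine the share of falls was near that of the genes above the median level, and for H-7 it was below it. Geldanamycin lowered 6 and raised 0, against 2.85% and 2.35% (5.54% and 4.23%). Aclacinomycin A called 0 in limma, with 1 at an unadjusted p under 0.05.

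**Figure D4:**
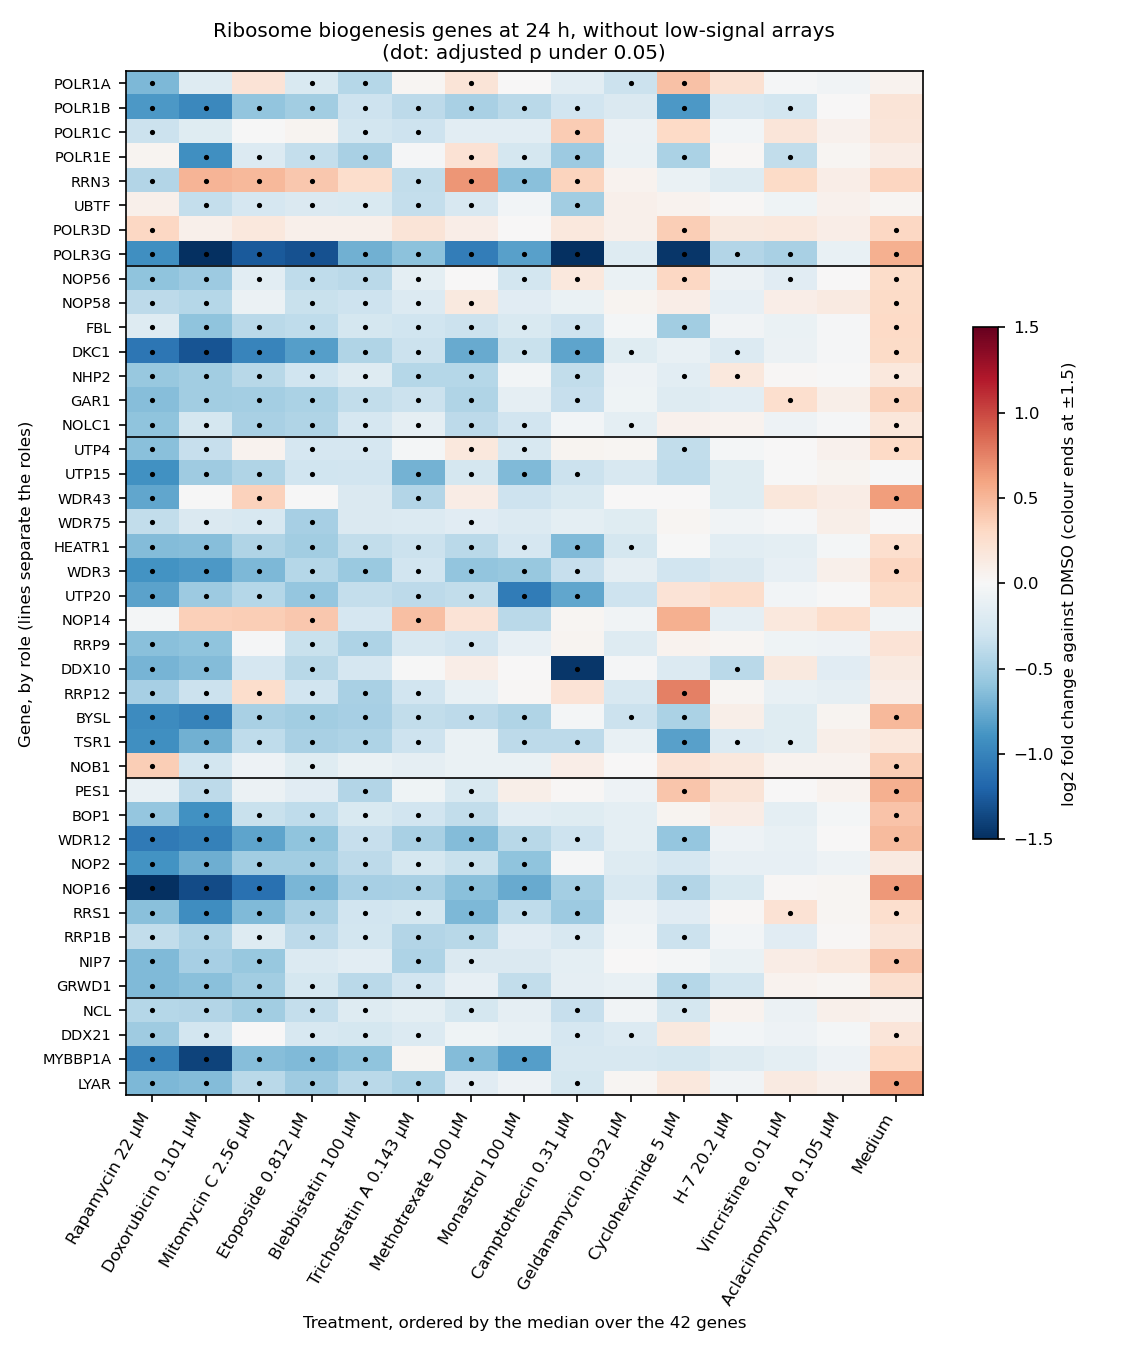
Log2 fold change against DMSO at 24 h without the low-signal arrays, drawn as for 6 h, with dots for an adjusted p under 0.05. The POLR3G row is dark blue under doxorubicin, camptothecin and cycloheximide, the RRN3 row is red under doxorubicin, methotrexate, mitomycin C, etoposide and camptothecin, and the medium column is red for 40 of 42 genes.

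At 24 h, with and without the low-signal arrays, POLR3G had the largest fall of any member under doxorubicin, camptothecin, etoposide, methotrexate, blebbistatin and vincristine. Without those arrays POLR3G changed by -0.72 under blebbistatin and -0.49 under vincristine. It was then also the member that fell most under mitomycin C, cycloheximide (-1.45, 1 array left) and H-7 (-0.44). With all arrays it fell most under monastrol too (-1.24), while its falls under blebbistatin and vincristine were not called. With all arrays it ranked 13th under mitomycin C, where NOP16 was lowest (-2.07). POLR3G is also the member of lowest mean level (5.78). Its values are those of 1 of its 2 probe sets, and the sign of the other was not compared at 24 h. At 6 h that other probe set, of mean level 3.61, changed by -0.04 under camptothecin and 0.26 under trichostatin A. The chosen probe set changed there by -0.43 and 0.44. Array medians ran from 5.59 to 5.80 without the low-signal arrays. On the arrays kept, each POLR3G reading under doxorubicin, camptothecin, etoposide, methotrexate and mitomycin C lay below the median of its own array. No DMSO reading did. It read 5.12, 5.38 and 5.13 under doxorubicin, against 6.56 to 7.04 (median 6.77) in DMSO (-1.55 ± 0.13, limma adjusted p = 1.10e-16), and -1.52 ± 0.25 with all arrays (adjusted p = 7.81e-06). Under camptothecin it read 5.23 and 5.25 (-1.52 ± 0.15), under etoposide 5.62, 5.47 and 5.27 (-1.31 ± 0.13), under mitomycin C 5.65 and 5.36 (-1.26 ± 0.15) and under methotrexate 5.70 to 5.77 (median 5.72, -1.04 ± 0.11). With all arrays these changes were -1.42 for camptothecin, -1.27 for etoposide and -1.19 for mitomycin C, and these and the methotrexate change (limma adjusted p = 0.000283) were all called. Doxorubicin at 0.03 µM also lowered it, with 5.74, 5.67 and 6.01 (-0.96 ± 0.13), as did camptothecin at 0.01 µM with 5.89, 5.49 and 5.84 (-1.02 ± 0.13). The polymerase III subunit POLR3D, by contrast, read 9.24, 9.21 and 9.25 under doxorubicin, inside the DMSO range. Of the higher concentrations and medium, only medium raised POLR3G (7.25 and 7.34, 0.53 ± 0.15, and 0.57 ± 0.29 with all arrays, not called), and it was not called under geldanamycin and aclacinomycin A.

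RRN3 went in opposite directions among the compounds at 24 h. It rose under methotrexate (10.39 to 10.66, median 10.47, against 9.54 to 10.10 in DMSO, 0.66 ± 0.09), doxorubicin (10.32, 10.41 and 10.32, 0.51 ± 0.11), mitomycin C (0.48 ± 0.13), etoposide (0.41 ± 0.11) and camptothecin (0.33 ± 0.13). It fell under monastrol (9.05 and 9.39, -0.62 ± 0.13), rapamycin (-0.43 ± 0.13) and trichostatin A (-0.37 ± 0.13). Camptothecin, rapamycin and trichostatin A each had 1 of their 2 arrays inside the DMSO range. With all arrays none of these RRN3 changes was called in limma, and the adjusted p under doxorubicin was 0.924. Mitomycin C then differed in sign, at -0.67, with its low-signal replicate 2 at 6.68.

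**Figure D5:**
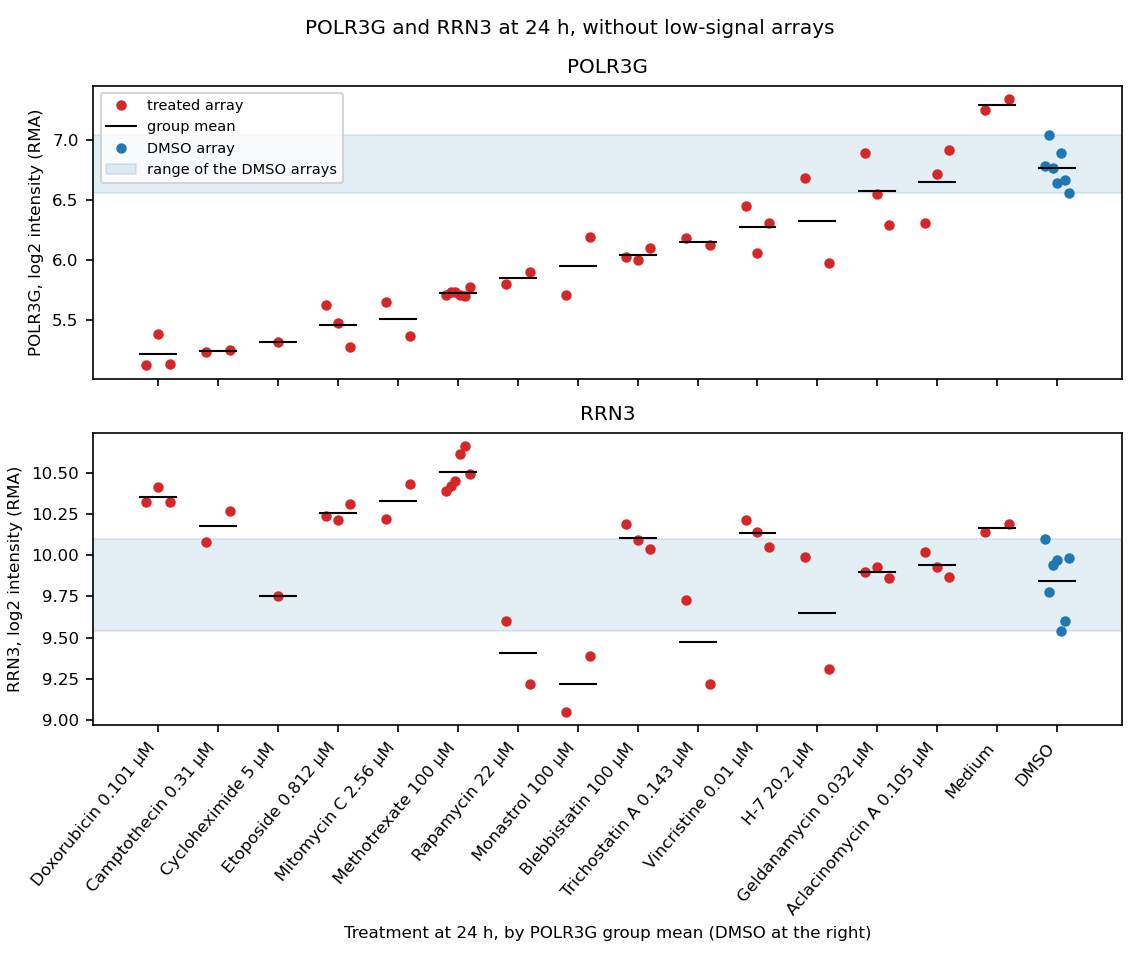
POLR3G (top) and RRN3 (bottom) log2 intensity on each 24 h array without low-signal arrays, for the higher concentrations, medium and DMSO (right); lines are group means and bands the range of the 7 DMSO arrays. POLR3G lies at 5.12 to 5.38 under doxorubicin, below the DMSO band of 6.56 to 7.04, while RRN3 lies at 10.32 to 10.41, above its band of 9.54 to 10.10.

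The change between 6 and 24 h was tested in 1 limma fit as a difference of differences. Without the low-signal arrays doxorubicin's effect was lower at 24 h for 26 members and higher for 1, against 20.3% of all genes called, and methotrexate's lower for 24 and higher for 2, against 27.2%. For POLR3G under doxorubicin this difference was -1.36 ± 0.23. Trichostatin A's effect was lower for 24 and higher for 4, against 36.2%, with BOP1 at -1.48 ± 0.13 and UBTF at 0.91 ± 0.10. H-7 was the reverse, with 18 higher and 5 lower, against 29.6%, led by POLR1A at 1.14 ± 0.12. This direction depended on the arrays kept. The median change under H-7 was 0.26 without the low-signal arrays and -0.26 with all arrays, where 1 member was higher and 5 lower. In medium 2 were higher and 1 lower, against 6.93%. With all arrays 19 members were called for mitomycin C, against 12.8% of all genes, 6 for H-7 (12.7%), 5 for trichostatin A (9.81%), 2 for cycloheximide (3.65%), 1 for doxorubicin (1.12%) and 1 for methotrexate (2.51%).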

How the data were processed

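The deposited values are log2 intensities, 1 per probe set and array, which the authors made with RMA per the submitters' processing notes (version not given in the sources used here). RMA equalises arrays, yet upper quartiles still differed at 12 and 24 h. Of 49386 probe sets, 45259 name 1 gene in the platform annotation, and each of 18239 genes was given its probe set of highest mean. Groups follow the sample labels. A group-means model was fitted per time to all 94 arrays with limma 3.58.1 in R 4.3.3 (empirical Bayes with a mean-variance trend), each group was set against DMSO of its time, and p-values were adjusted by Benjamini-Hochberg over all genes; a call is an adjusted p under 0.05. All p-values are two-sided. The fit was first checked on simulated data. Tables and figures used Python 3.11.15, pandas 2.3.3 and matplotlib 3.10.9.

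The members and lists were chosen with earlier results of these data known. Named in each comparison are 10 set genes (POLR1A, POLR1B, RRN3, UBTF, POLR3G, POLR3D, NCL, FBL, NOP56, DKC1) where described, and from the up to 6 largest called rises and falls with separated arrays. Other members are named to complete a count or a role and were chosen after their values were seen. The number of arrays limits the precision. Alternatives covered normalization, probe-set choice, a filter on low genes, the arrays in the fit, a replicate block, the variance trend, methotrexate arrays of one number averaged, each replicate left out, and the low-signal arrays left out. Promoter sequences and gene lengths come from RefSeq (GRCh38.p14).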

Additional observations from a re-analysis of the deposited data

Results flagged for a closer look

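Single arrays stood far from the rest of their group, by Dixon's 95% critical value, in 25 of 156 sets of DMSO or methotrexate values tested, where chance gives about 1 in 20, and 14 of the 25 came from low-signal arrays. In DMSO at 6 h the lowest arrays were BOP1 at 9.27 and POLR1A at 8.78 on replicate 2, and NOP14 at 8.39, WDR12 at 8.9 and WDR3 at 8.55 on replicate 8. With methotrexate at 6 h a replicate 3 array was highest for BOP1 at 10.4, NCL at 12.44, POLR3D at 9.6 and RRP12 at 9.77 and lowest for RRN3 at 9.22. The single methotrexate call of 6 h, RRP12, includes that array. With methotrexate at 12 h the low-signal replicate 2 was lowest for BOP1 at 8.81, DDX10 at 6.52, MYBBP1A at 6.25, POLR1A at 8.88, POLR3D at 8.09, POLR3G at 4.26, UBTF at 9.81, WDR12 at 8.12 and WDR3 at 6.16. In DMSO at 12 h DKC1 at 10.46, WDR12 at 7.79 and WDR3 at 5.84 were lowest, also on low-signal arrays. In DMSO at 24 h the low-signal replicate 7 was lowest for NHP2 at 11.85 and UTP15 at 6.42. With methotrexate at 24 h UBTF at 9.86 was lowest.

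The change against DMSO differed between 24 and 6 h, tested in limma over all arrays, for 19 members under mitomycin C, 6 under H-7, 5 under trichostatin A, 2 under cycloheximide, 1 under doxorubicin and 1 under methotrexate. The part of low-signal arrays in the mitomycin C and H-7 counts was not tested beyond the values without them given above.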

How the results depend on the processing

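Counts below are members called of 42, and the cause of each change was not tested. At 6 h the counts for camptothecin, cycloheximide, geldanamycin, H-7, rapamycin, trichostatin A and medium stayed within 1.5 times under every alternative run. Quantile normalization again gave 0 for methotrexate and 2 for mitomycin C at 6 h; camptothecin 3, cycloheximide 3, geldanamycin 4, H-7 1, trichostatin A 7 and medium 1 at 12 h; and camptothecin 6, doxorubicin 15, etoposide 5, methotrexate 7, monastrol 1, rapamycin 19 and medium 1 at 24 h. Without the 40% of genes of lowest mean, mitomycin C had 2 at 6 h, and camptothecin 2, cycloheximide 1 and H-7 1 at 12 h. With the mean of all probe sets, blebbistatin had 13 and mitomycin C 2 at 6 h, camptothecin 2, cycloheximide 3, doxorubicin 6, geldanamycin 0 and medium 1 at 12 h, and monastrol 1 at 24 h. That setting turned HEATR1 under camptothecin to 0.021 and UBTF in medium to 0.35 at 6 h. With only the arrays of the groups compared, methotrexate had 0 and mitomycin C 2 at 6 h; blebbistatin 7, camptothecin 9, cycloheximide 4, doxorubicin 8, geldanamycin 6, H-7 6, rapamycin 22, trichostatin A 11 and medium 8 at 12 h; and blebbistatin 16, camptothecin 19, cycloheximide 18, doxorubicin 35, etoposide 26, H-7 0, methotrexate 27, mitomycin C 2, monastrol 15, rapamycin 38, trichostatin A 14 and medium 13 at 24 h. Methotrexate had 0 at 6 h without the variance trend, and 0 at 6 h and 1 at 24 h with arrays of one number averaged.

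The replicate numbers did not pair the arrays: residuals of same-numbered arrays had median correlations of -0.0011, -0.0024 and 0.0042 at 6, 12 and 24 h, and 28, 24 and 32 of 83 arrays correlated best with their own number. With the replicate block, 6 h gave doxorubicin 3, methotrexate 0, mitomycin C 0 and vincristine 1; 12 h gave blebbistatin 0, camptothecin 2, cycloheximide 1, doxorubicin 0, geldanamycin 0, rapamycin 5 and medium 1; and 24 h gave camptothecin 1, doxorubicin 3, H-7 4, methotrexate 1, mitomycin C 16, monastrol 1, rapamycin 2 and trichostatin A 0.

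Without the low-signal arrays, 12 h gave camptothecin 14, cycloheximide 17, geldanamycin 17, H-7 12, mitomycin C 1, monastrol 9, trichostatin A 21 and medium 24. Camptothecin raised 23.8% of members and lowered 9.52%, against 27.8% and 20.5% of the genes above the median level. For cycloheximide these shares were 19.0% and 21.4%, against 19.6% and 23.1%. For H-7 they were 9.52% and 19.0%, against 19.2% and 25.3%, and for trichostatin A 26.2% and 23.8%, against 28.4% and 24.7%. All these shares are near or below that background. At 24 h the counts were blebbistatin 32, camptothecin 24, doxorubicin 37, etoposide 37, geldanamycin 6, H-7 5, methotrexate 31, monastrol 21, rapamycin 38, trichostatin A 31, vincristine 7 and medium 23. Groups reduced to 1 array are left out here. Each replicate number was left out in turn, from all compounds and medium together or from DMSO. The 6 h counts then ran from 0 to 1 for aclacinomycin A, 4 to 10 for doxorubicin and 1 to 6 for etoposide. They ran from 0 to 2 for methotrexate, 0 to 2 for mitomycin C, 12 to 21 for monastrol and 0 to 2 for vincristine. At 12 h the ranges were 0 to 1 for aclacinomycin A, 0 to 15 for blebbistatin, 1 to 8 for camptothecin, 0 to 5 for cycloheximide, 0 to 25 for doxorubicin, 0 to 8 for etoposide, 0 to 9 for geldanamycin, 0 to 6 for H-7, 5 to 22 for rapamycin, 1 to 10 for trichostatin A and 0 to 1 for medium. At 24 h they were 1 to 3 for camptothecin, 2 to 8 for cycloheximide, 3 to 9 for doxorubicin, 0 to 2 for etoposide, 0 to 25 for H-7, 1 to 3 for methotrexate, 1 to 38 for mitomycin C, 0 to 2 for monastrol, 5 to 10 for rapamycin and 0 to 7 for trichostatin A.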
